A study of Sus scrofa with 80 samples.

Results

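The genes described here are 65 innate immunity genes of the pig, out of 23722 genes measured on a custom one-color microarray. They were chosen by name alone. The rule took the Toll-like receptors (TLR), the NLR genes (NLRC, NLRP and NLRX), the helicases DDX58 and DHX58, the interferon regulatory factors (IRF), the STAT genes, the interferon-induced families IFI, IFIT, IFITM, OAS, MX, GBP and ISG, and the C-type lectin domain genes (CLEC), and left out CLEC1B. By role they are 9 Toll-like receptors, 9 NLR genes, 2 helicases, 6 interferon regulatory factors, 4 STAT genes, 20 interferon-induced effectors, ISG20L2 and 11 C-type lectin domain genes. The name rule also caught 3 IRF2-binding proteins (IRF2BP1, IRF2BP2 and IRF2BPL), which are not interferon regulatory factors themselves. All 65 genes were tested, and no filter on low values was applied.

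The animals were Göttingen minipigs from one breeder, with no treatment. Spleen, bone marrow, liver, kidney and 3 brain regions (cerebellum, hypothalamus and cortex) each gave 1 male and 1 female sample at the ages of 1 and 4 weeks and of 2 and 4 months, and 1 male sample at 2 years. Testis was sampled at the same 5 ages and ovary at the 4 ages up to 4 months, with 1 sample at each age. The 2-year-old male had been raised at another site from day 74, with other feed and another pentobarbital product. For the younger ages the labels do not say whether the tissues of one age and sex came from 1 animal, so the difference between 2 samples of an age holds sex, individual and array together. These 72 samples form the data, the male kidney at 2 years being the mean of 8 technical repeats. RNA integrity numbers were above 7 with 4 exceptions. One further array, of the renal pelvis of the 2-year-old male, was kept apart.

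Cells recognize microbes with germline-encoded sensors. Toll-like receptors read microbial products at the cell surface or in endosomes, DDX58 (RIG-I) reads viral RNA in the cytoplasm, and NLR proteins work in the cytoplasm, some of them in inflammasomes and some in the oocyte. Many of these sensors lead through IRF3 and IRF7 to the secretion of type I interferon, which acts on other cells through STAT proteins and IRF9 and switches on antiviral genes such as MX1, OAS1 and the IFIT family. C-type lectin domain proteins bind sugars or other ligands and mark particular endothelial or blood cells.

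Levels are quantile-normalized log2 intensities, averaged over the probes of a gene. The array is a mean over all cells of a tissue, so fewer cells of a type and less RNA per cell cannot be told apart. The detection limit, the 95th percentile of the negative control spots of an array, lay between 2.29 and 3.39 with a median of 2.89. Of the 65 genes, 35 lay above it in all 72 samples, and 26 were marked by the scanner software as well above background in all of them. TLR10, GBP6 and CLEC2B were not well above background in any sample, so their values are given without a fold. In the comparisons between tissues, where a gene was well above background in few samples of the lower group, the size of the difference is set partly by values at background, so those samples are counted and no size is given. The probes of a gene carry different affinities, so a level is compared between samples and never between genes. Each gene has at least 2 probes, but 12 genes, among them CLEC9A, DDX58, IRF3, IRF7, GBP5, IFIT1B and IFITM1, have only probes whose names carry the tag Xhyb, so near copies may share their signal. The probes of CLEC7A, TLR6, CLEC12B, NLRC3, OASL and DHX58 hardly followed one another, with a lowest correlation of -0.25, -0.21, 0.06, 0.16, 0.19 and 0.19 over the 72 samples, which share tissues and arrays. The levels of these genes are uncertain.

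**Figure D1:**
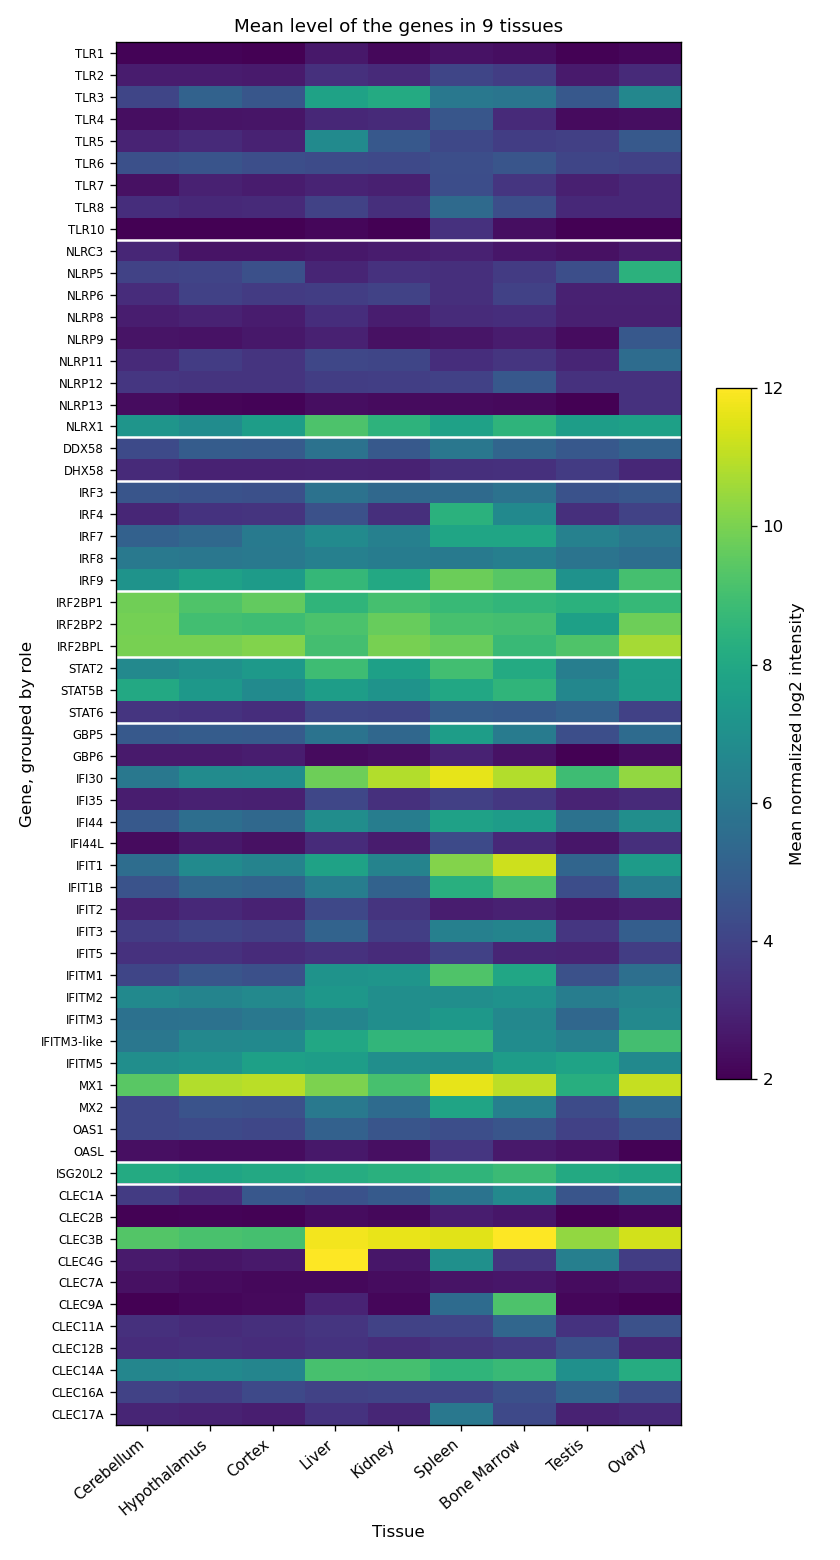
Mean normalized log2 intensity (color) of the genes reported here (rows, grouped by role, white lines between roles) in 9 tissues (columns; 8 samples up to 4 months in the first 7 tissues, 5 in testis and 4 in ovary). Rows should be read from left to right: IRF4 has its highest value in spleen, CLEC9A in bone marrow, CLEC4G in liver, TLR3 in kidney and NLRP5 in ovary.

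Tissues were compared over the 56 samples up to 4 months from the 7 organs common to males and females, each tissue against the mean of the other 6, with the age-by-sex combination in the model. A gene was called at an adjusted p-value under 0.05 and at least a 2-fold difference. In spleen, 29 of the 65 genes were higher, against 8.81% of all genes, and 0 were lower, against 10.1% (limma, 6 lower at an unadjusted p under 0.05). In bone marrow 15 were higher, against 10.4%, and 1, CLEC4G, was lower, against 12.1%. In liver 8 were higher, against 9.84%, and 0 were lower, against 11.5% (limma, 10 lower at an unadjusted p under 0.05). In kidney 5 were higher (TLR3, IFI30, IFITM3-like, CLEC14A and CLEC3B), against 8.89%, and 7 were lower, against 8.95%. The 3 brain regions were compared with the other 4 tissues: 29 genes were lower there, against 13.5%, and 0 were higher, against 13.3% (limma, 4 higher at an unadjusted p under 0.05). The median log2 difference over the 65 genes was 0.62 in spleen, 0.34 in bone marrow, 0.15 in liver, -0.05 in kidney and -0.87 in the brain regions, beside 0.01, 0.01, -0.05, -0.07 and -0.11 over all genes. The shares higher in spleen and lower in the brain regions, 44.6% each, were thus far above those among all genes. In bone marrow the share higher was 23.1%, also above that among all genes, and the share lower was below it. The shares higher in liver and in kidney and lower in kidney were near those among all genes, while the share lower in liver was below it. Markers of B cells, T cells, NK cells, and macrophages and monocytes were higher in spleen than in the brain as well, and their part in the result was not tested. The mean of the 6 B cell markers was between 7.59 and 9.15 in spleen, between 7.19 and 8.38 in bone marrow and between 5.77 and 6.42 in the brain regions, and that of the 4 measured T cell markers (of 6 listed) between 6.72 and 8.58, between 5.24 and 7.55 and between 4.56 and 5.18. The mean of the 3 measured NK cell markers (of 5 listed) was between 5.13 and 7.52 in spleen and between 4.10 and 4.73 in the brain regions. That of the 3 measured macrophage markers (of 6 listed), which microglia also express, was between 9.15 and 10.68 in spleen and between 6.94 and 8.55 in the brain regions. No measured marker of these lists was below the detection limit in every sample.

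Among the Toll-like receptors, 4 of 9 were higher in spleen and 4 of 9 lower in the brain regions. The spleen calls include TLR10, which was not well above background in any sample. TLR8, an endosomal sensor of single-stranded RNA, was between 4.82 and 6.00 in spleen (median 5.55) and lay between 3.99 and 4.89 in bone marrow (median 4.41), the next highest tissue. It was higher in spleen than in the other tissues by 1.90 ± 0.09 log2 units (SE, adjusted p = 1.55e-23). TLR4, the receptor for lipopolysaccharide, was between 4.20 and 5.35 in spleen and at most 3.65 in any sample of the other 6 tissues, so the groups did not overlap. It was well above background in 7 of 8 spleen samples and in none of the other 48, so its difference is given as at least 2.79-fold (adjusted p = 8.37e-20). TLR7, which also senses single-stranded RNA, was called higher in spleen (adjusted p = 6.8e-15), and was well above background in 6 of 8 samples there and in 3 of the other 48.

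TLR3, the receptor for double-stranded RNA, had its highest levels outside the blood-forming tissues. In kidney it was between 7.53 and 8.63 (median 8.14) and in liver between 7.21 and 8.14 (median 7.83), and these ranges overlapped. In spleen it was between 5.32 and 6.75, and in cerebellum between 3.53 and 4.32. The fitted difference was 2.52 ± 0.12 log2 units for kidney (adjusted p = 1.28e-24), 2.13 ± 0.12 for liver (adjusted p = 5.9e-22) and -2.31 ± 0.08 for the brain regions (adjusted p = 7.13e-30). TLR5, the receptor for bacterial flagellin, was between 5.90 and 7.28 in liver and between 4.35 and 5.13 in kidney, and no sample of the other 6 tissues reached the lowest liver value. The difference was called (adjusted p = 1.54e-27), with 14 of the other 48 samples well above background. TLR1 and TLR10 were above the detection limit in 5 and 8 of the 72 samples, and TLR2, which pairs with TLR1 or TLR6, was well above background in 15.

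Of the 9 NLR genes, 1 was higher in liver, 1 higher in bone marrow and 1 lower in the brain regions. NLRX1, a mitochondrial NLR protein, was well above background in all 72 samples, with a median of 9.35 in liver, 8.52 in kidney, 8.46 in bone marrow and 6.89 in hypothalamus. It was higher in liver by 1.47 ± 0.13 log2 units (adjusted p = 2.55e-14) and lower in the brain regions, with a difference of -1.26 ± 0.09 (adjusted p = 1.81e-17). NLRP12, a regulator of myeloid inflammation, was between 4.32 and 5.08 in bone marrow and between 3.76 and 4.32 in spleen, so the 2 ranges met. Its difference was 1.07 ± 0.07 log2 units (adjusted p = 1.03e-19), although 2 of its 4 probes carry the Xhyb tag and the lowest correlation between its probes was 0.35. NLRC3, NLRP8, NLRP9 and NLRP13 were above the detection limit in 23, 50, 13 and 4 of the 72 samples.

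Of the NLRP genes, NLRP5, NLRP9, NLRP11 and NLRP13 had their highest mean in ovary. NLRP5, a maternal protein of the oocyte, was 8.90, 7.69, 9.49 and 7.68 in ovary, from the youngest age to the oldest. The testis values, in the same order and ending with the 2-year male, were 6.06, 4.70, 3.59, 3.95 and 3.65. All ovary samples were above all testis samples, and the 8 cerebral cortex samples, the tissue with the next highest mean, lay between 4.03 and 4.69. NLRP9, another oocyte gene, was 4.92, 4.09, 6.16 and 3.80 in ovary at the 4 ages, and between 2.14 and 2.60 in testis, where it was not above the detection limit of any sample. NLRP11 was 5.88, 4.71, 5.83 and 5.75 in ovary and between 2.27 and 3.69 in testis. NLRP13 was 3.75, 3.16, 4.06 and 2.66 in ovary. For NLRP5, NLRP9 and NLRP13 the 2-month ovary was the highest of the 4 and the 4-month ovary the lowest. NLRP8 showed no such pattern, with 2.62 to 3.18 in ovary. With 1 ovary at each age these differences have no replicate check.

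**Figure D2:**
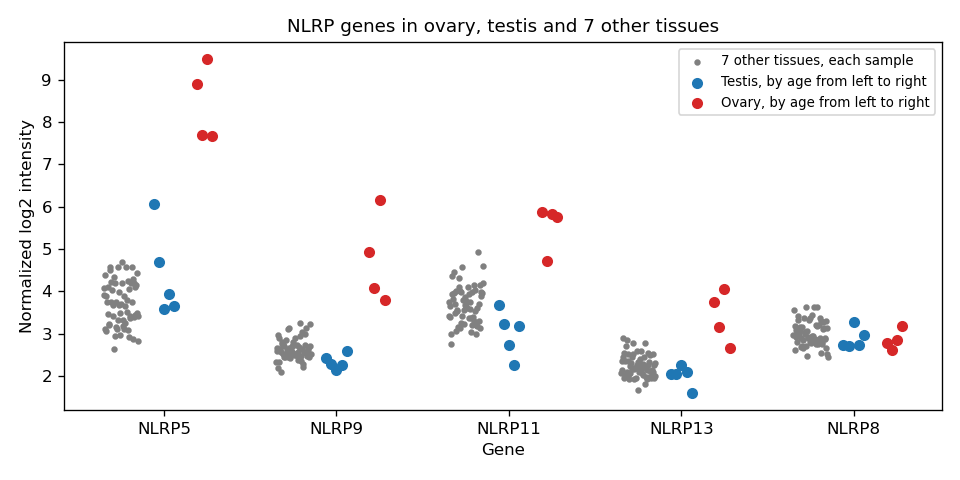
Normalized log2 intensity (vertical axis) of 5 NLRP genes in each ovary sample (red; 1 week, 4 weeks, 2 months and 4 months from left to right), each testis sample (blue; the same ages and 2 years) and each sample of the 7 other tissues (grey). The 4 ovary samples of NLRP5 sit between 7.68 and 9.49, above all other samples, while those of NLRP8 sit among them.

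Of the helicases, DDX58 was higher in spleen by 1.01 ± 0.12 log2 units (adjusted p = 3.1e-10), just past 2-fold. That call was lost when the 2-month male, 4-month male, 2-month female or 4-month female was left out. DHX58 (LGP2), a regulator of RIG-I signaling, was well above background in 7 of 72 samples and was called in no tissue.

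Of the 6 interferon regulatory factors, 3 were higher in spleen and 5 lower in the brain regions. IRF4, a factor of B and plasma cells, was between 6.78 and 9.72 in spleen (median 8.56), between 5.66 and 7.54 in bone marrow (median 6.73), and between 3.67 and 4.99 in liver. It was called higher in spleen (adjusted p = 1.71e-24), and was well above background in 15 of the other 48 samples. IRF7 and IRF9 were higher in spleen by 1.62 ± 0.14 (adjusted p = 5.49e-14) and 1.68 ± 0.10 (adjusted p = 1.4e-20), and in bone marrow by 1.62 ± 0.14 (adjusted p = 4.53e-14) and 1.30 ± 0.10 (adjusted p = 1.32e-16). IRF3, which is present before any stimulus, was between 4.22 and 4.89 in the brain regions and between 5.18 and 6.16 in the other 4 tissues, with no overlap and a difference of -1.05 ± 0.06 (adjusted p = 1.45e-21). The lowest correlation between its 4 probes, all with the Xhyb tag, was 0.27. IRF8, a factor of monocytes and B cells, had means from 5.60 in ovary to 6.36 in liver and was called in no tissue, but its 2 probes correlated at only 0.24.

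Of the STAT genes, which carry cytokine and interferon signals to the nucleus, STAT2 and STAT6 were higher in spleen and lower in the brain regions. STAT2 was higher in spleen by 1.34 ± 0.11 (adjusted p = 1.1e-15) and in liver by 1.24 ± 0.11 (adjusted p = 1.29e-14). STAT5B, which acts downstream of growth hormone and cytokine receptors, was higher only in bone marrow among the 5 contrasts, by 1.07 ± 0.11 (adjusted p = 2.12e-12), and this call was lost without the 2-month male.

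Of the 20 interferon-induced effectors, 13 were higher in spleen, 6 in bone marrow, 1 in liver and 2 in kidney, and 10 were lower in the brain regions. IFI30, a lysosomal thiol reductase of antigen-presenting cells, ranged from 10.27 to 12.46 in spleen, from 10.24 to 11.55 in kidney and from 5.64 to 7.18 in the brain regions. Its difference of -4.21 ± 0.12 log2 units, or 18.5-fold, was the largest fall in the brain regions (adjusted p = 3.3e-34), without overlap. IFITM1, which blocks the entry of viruses at the cell membrane, was between 7.72 and 10.74 in spleen and was 10.2-fold higher there than in the other tissues (3.35 ± 0.19, adjusted p = 3.72e-21). IFIT1, which binds foreign RNA caps, stood highest in bone marrow, between 10.67 and 11.71, against 9.13 to 11.36 in spleen and 5.74 to 8.00 in kidney. The bone marrow difference of IFIT1 was 4.04 ± 0.16 log2 units, or 16.4-fold (adjusted p = 4.88e-27). IFIT1B followed it with 3.46 ± 0.15 (adjusted p = 2.27e-25), and IFIT3 with 1.99 ± 0.13 (adjusted p = 1.17e-18). In kidney these 3 IFIT genes were lower, IFIT1 with a difference of -1.51 ± 0.16 (adjusted p = 9.04e-12), IFIT1B of -1.34 ± 0.15 (adjusted p = 7.09e-11) and IFIT3, well above background in 3 of 8 kidney samples, with adjusted p = 2.58e-10, while IFI30 was higher there by 2.20 ± 0.17 (adjusted p = 2.3e-16). MX1, a GTPase against influenza and other viruses, was high in every tissue and was not called lower in the brain regions: it was between 10.38 and 11.83 in cerebral cortex, against 7.93 to 11.16 in kidney, where it was lower with a difference of -1.55 ± 0.17 (adjusted p = 6.84e-11). OASL was called higher in spleen on a minority of its samples, with 7.84 in the 1-week female, 5.01 in the 2-month female and 3.84 or less in the other 6. The call was lost without either of those 2 samples. IFIT2, a relative of IFIT1, was higher in liver by 1.12 ± 0.19 (adjusted p = 6.42e-07), with 2 probes that correlated at 0.37. IFITM2, a relative of IFITM1, had means from 6.22 in testis to 7.30 in liver and IFI35 from 2.80 in cerebellum to 4.12 in liver, and neither was called in any tissue.

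Among the C-type lectin domain genes, CLEC4G, an endothelial lectin of the liver sinusoids, was between 11.79 and 12.21 in liver, at all ages. In spleen it was between 5.03 and 9.64, in testis between 5.78 and 6.87, and in kidney and the brain regions at most 3.06. It was called higher in liver (adjusted p = 4.87e-31), without overlap. Only 12 of the 48 samples of the other 6 tissues (8 of spleen and 4 of bone marrow) were well above background. Against the brain regions alone, where it was nowhere well above background, the mean of the other 4 tissues was at least 9.52-fold higher. Kidney, which is among those 4, was also nowhere well above background. CLEC14A, an endothelial gene, and CLEC3B (tetranectin), a secreted plasminogen-binding protein, were lower in the brain regions without overlap, with differences of -2.22 ± 0.09 (adjusted p = 1.41e-27) and -2.61 ± 0.12 (adjusted p = 2.01e-24). In liver both were higher, by 1.38 ± 0.13 (adjusted p = 9.94e-14) and 1.34 ± 0.18 (adjusted p = 4.17e-09). CLEC17A, a lectin of B cells, was between 4.58 and 6.76 in spleen and well above background in 3 of the other 48 samples, all of bone marrow, where it was between 3.58 and 4.83. It was called higher in spleen (adjusted p = 2.39e-22). CLEC11A, a growth factor of blood-forming cells, was between 4.93 and 5.67 in bone marrow and did not overlap with the other 6 tissues of the comparison (adjusted p = 1.25e-19), of which 3 of 48 samples were well above background. In ovary it was between 4.09 and 4.97. CLEC1A was higher in bone marrow by 2.25 ± 0.16 (adjusted p = 3.03e-17) and in spleen by 1.16 ± 0.16 (adjusted p = 1.49e-08). CLEC16A, an autophagy gene, was called in no tissue, with means from 3.83 in hypothalamus to 5.24 in testis. CLEC9A, described in other species as a receptor for dead cells on cross-presenting dendritic cells, was between 8.04 and 10.45 in bone marrow up to 4 months and was called higher there (adjusted p = 3.63e-19). Of the other 48 samples 6 were well above background, 4 of spleen and 2 of liver, and the spleen values, up to 8.70, overlapped with those of bone marrow.

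Spleen and bone marrow, the tissues with the most calls, were then compared directly in the same model. Of the 65 genes, 15 differed (12 higher in spleen and 3 in bone marrow), against 11.1% of all genes. The genes higher in bone marrow were CLEC9A (adjusted p = 1.17e-07), CLEC11A (adjusted p = 4.69e-10) and IFIT1 (-1.09 ± 0.21 as spleen minus bone marrow, adjusted p = 2.6e-05), whose call was lost without the 2-month male or the 4-month male. CLEC9A and CLEC11A were well above background in 4 and 3 of the 8 spleen samples. Those higher in spleen held 3 of the Toll-like receptors, TLR4, TLR8 and TLR10, the last not well above background in any sample. TLR4 was the only one of them without overlap, at least 2.42-fold higher (adjusted p = 1.34e-11). CLEC4G (adjusted p = 3.28e-11) and CLEC17A (adjusted p = 4.84e-11) were higher in spleen, and were well above background in 4 and 3 of the 8 bone marrow samples. IFITM3-like was 3.39-fold higher in spleen (adjusted p = 4.92e-07), IRF4 3.13-fold (adjusted p = 6.42e-07), MX2 2.82-fold (adjusted p = 4.7e-07) and GBP5 2.69-fold (adjusted p = 4.61e-08). The interferon-induced genes therefore did not all lie on one side, since IFIT1 was higher in bone marrow and MX2, GBP5 and IFITM1 in spleen.

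The 8 combinations of age and sex were then compared across the 7 tissues, with tissue as a block. Of the 65 genes, 21 differed between the combinations at an adjusted p-value under 0.05 (moderated F test), against 15.3% of all genes. In 17 of these 21 the highest combination was the 2-month female, as it was in 16.1% of the 3624 genes called in all. Among the 17 were MX1, MX2, OAS1, IRF7, IRF9, STAT2, DDX58, IFI44, IFI44L, 4 IFIT genes (IFIT1, IFIT1B, IFIT3 and IFIT5) and 3 IFITM genes (IFITM1, IFITM3 and IFITM3-like). In 9 genes (IFI44, IFIT3, IFITM1, IFITM3, IFITM3-like, IRF7, IRF9, MX1 and MX2) the 2-month female had the highest value of the 8 samples in every one of the 7 tissues, which was so for 39 of all 23722 genes (0.164%).

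The values of MX1 show the pattern tissue by tissue. In the 2-month female it was 10.23 in cerebellum, 11.75 in hypothalamus, 11.83 in cortex, 11.14 in liver, 11.16 in kidney, 13.41 in spleen and 12.58 in bone marrow. The median of the other 7 samples was lower in each tissue, by 0.84 log2 units in cerebellum to 2.39 in kidney. The 2-month male was between the female and that median in all 7 tissues, at 11.05 in liver and 9.80 in kidney. OAS1, which makes the activator of RNase L, was 7.11 in liver, 6.93 in kidney, 6.94 in spleen and 7.20 in bone marrow of the 2-month female, against at most 5.53, 5.26, 4.97 and 5.74 in the other 7 samples of those tissues. In cerebellum its 2-month female value (4.62) was below that of the 4-month female (4.71). Over the combinations the effect on MX1 had a range of 2.34 log2 units (adjusted p = 4.88e-09), that on OAS1 of 2.63 (adjusted p = 9.44e-09), that on IFITM3-like of 2.90 (adjusted p = 5.08e-09) and that on IFI44 of 1.74 (adjusted p = 8.12e-13). The lowest combination was the 1-week female in 13 of the 21 genes, but the share of all called genes with that lowest combination was not counted.

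The ovary, which was not part of that test, had its highest value at 2 months in all 9 of those genes. The share of all genes highest in that ovary was not counted. The labels also do not say whether it came from the same animal as the other tissues, so this is no independent support. In ovary, from 1 week to 4 months, MX1 was 10.42, 10.83, 12.70 and 10.55, IFI44 was 6.19, 6.75, 8.15 and 6.74, and OAS1 was 4.24, 4.46, 6.49 and 2.88. In the testis of the 2-month male, MX1 was 7.94, between the values at 4 weeks (9.21) and 4 months (7.04). The 8 samples of the 2-month female lay on 8 different slides, and the count was 21 again with slide as a covariate. It was 15 of 65 without the 2-month female (the calls of DDX58, IFI44L, IFIT1, IFIT1B, IFIT5 and STAT2 were lost), 16 without spleen and bone marrow (13.3% of all genes there), and 13 of the 53 genes that keep a probe without the Xhyb tag. The share of all genes was not counted with slide as a covariate, without the 2-month female or without Xhyb probes. Those counts are therefore not set against all genes. GBP5 and IRF2BP1 had their highest combination in the 2-month male, TLR3 in the 4-month female and CLEC9A in the 1-week female. With 1 sample for each age, sex and tissue, individual, age and sex cannot be told apart.

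**Figure D3:**
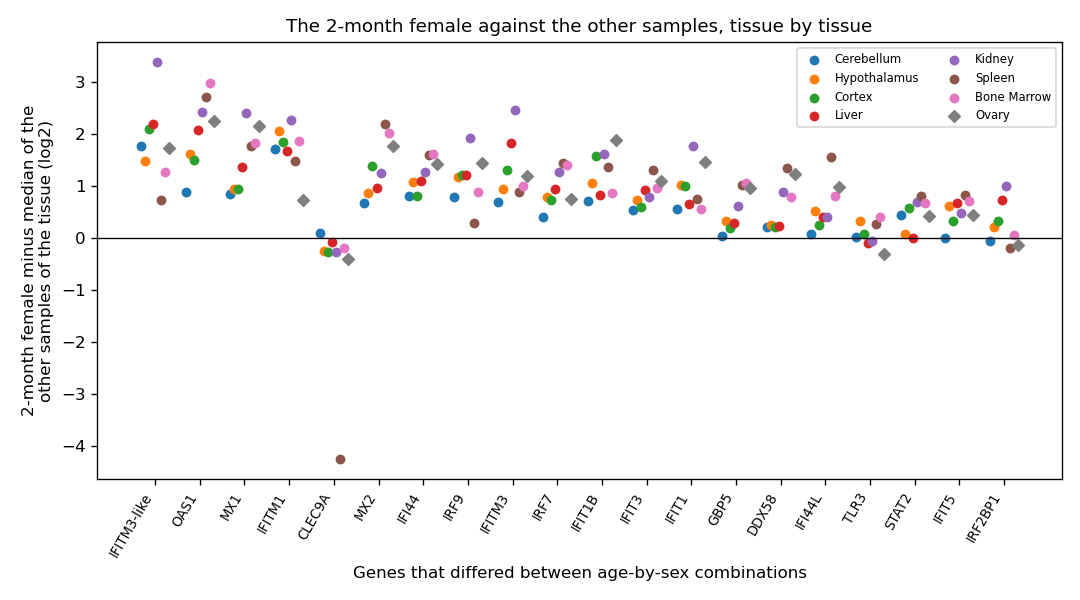
Normalized log2 intensity of the 2-month female minus the median of the other samples of the same tissue (vertical axis), for genes that differed between age-by-sex combinations (horizontal axis, by falling range of the effect), in 7 tissues (circles) and ovary (grey diamonds). All 8 points are above 0 in MX1, OAS1, IFITM1 and IFI44, whereas the spleen point of CLEC9A lies at -4.25.

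Genes of the same pathway outside the name rule were listed for comparison. Of 24 listed interferon-induced genes, 16 were measured under their symbol, and 9 of these differed between the combinations, against the 15.3% of all genes. In 8 of the 9 the 2-month female was highest, and in RSAD2, HERC5, XAF1, PARP12 and DTX3L this held in all 7 tissues. RSAD2 (viperin), an antiviral enzyme, had a range of 2.80 log2 units (adjusted p = 1.66e-11), XAF1 of 2.54 (adjusted p = 5.84e-11) and CXCL10, a chemokine for T cells, of 2.56 (adjusted p = 7.62e-06). Of 14 measured sensors and adaptors (of 23 listed), 2 differed, near the share among all genes, and TMEM173 (STING) was highest in the 2-month female (range 0.62, adjusted p = 0.0334). Of the 3 measured genes of interferon receptors and signaling (of 11 listed), 0 differed (limma, adjusted p = 0.132 for SOCS1, 0.209 for PIAS1 and 0.535 for IFNGR1). In spleen, 9 of the 16 interferon-induced genes, 5 of the 14 sensors and adaptors and 1 of the 3 receptor and signaling genes were higher, against 8.81% of all genes, and 0 of the 33 were lower, against 10.1%.

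A further 21 genes are listed in the files by a transcript identifier only, and the RefSeq table of assembly Sscrofa11.1 gives them a symbol of the same families. They fall outside the rule, but 8 of them repeat the symbol of a gene described here. The second measurement of MX2 followed the first with a correlation of 0.97 over the 72 samples, and those of DDX58 and IRF7 with 0.94 each. That of IRF8 did not follow the first, with 0.01. That of IRF4 had 0.75, but was well above background in 1 of the 72 samples. Its means were 3.82 in spleen and 3.75 in bone marrow, so the spleen and bone marrow difference of IRF4 was not seen there. These correlations describe samples that share tissue and array. In the comparison of age-by-sex combinations 13 of the 21 differed, and 9 were highest in the 2-month female, among them OAS2 (range 2.34 log2 units, adjusted p = 1.16e-09) and ISG15 (2.27, adjusted p = 7.28e-06). CLEC5A, a myeloid receptor, had a mean of 4.87 in bone marrow and at most 2.57 elsewhere.

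Age was tested within each tissue, 4 samples of 2 and 4 months against 4 samples of 1 and 4 weeks. In spleen 7 of the 65 genes changed, against 3.11% of all genes, 6 of them upward. The fall was that of CLEC9A. Male and female values were 8.62 and 8.70 at 1 week, then 8.11 and 7.25 at 4 weeks. By 2 months they were down to 3.01 and 3.00, and the 4-month pair had 2.53 and 2.68. The groups were far apart, and no older sample was well above background, so CLEC9A fell at least 34.6-fold (adjusted p = 0.000159). The level at 2 years was 2.75. This call was kept in all 8 fits that each left out 1 sample.

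In bone marrow CLEC9A was 10.25 and 10.45 at 1 week and 8.34 and 8.04 at 4 months, a change that was not called. The age effect differed between the tissues by -4.19 ± 0.50 log2 units, spleen minus bone marrow (interaction in limma, adjusted p = 0.00105). No other of the 65 genes passed this test. The share of all genes that passed is not given here, so the count is not read as a result about the 65 genes. In liver CLEC9A was 5.63 and 4.94 at 1 week, well above background, and at most 2.71 from 4 weeks on. Its 2 probes had a correlation of 0.99, but both carry the Xhyb tag. Markers of red cell precursors moved the same way. The mean of the 6 erythroid markers was between 5.37 and 8.54 in the younger spleens and between 4.44 and 4.56 in the older, and between 7.73 and 8.91 in bone marrow at all 4 ages. KLF1, a transcription factor of red cell precursors, was 12.52 and 12.39 in spleen at 1 week, 7.99 and 5.43 at 4 weeks, and at most 4.27 later. Of 4 listed dendritic cell markers, 2 were measured. BATF3 was between 4.70 and 6.59 in the younger spleens and between 5.96 and 6.48 in the older, and XCR1 stayed at or below 3.05 in spleen. Neutrophil markers moved the same way too. The mean of the 3 measured ones (of 6 listed) was between 7.07 and 9.57 in the younger spleens and between 6.01 and 6.85 in the older, between 6.93 and 9.26 in the younger livers and between 5.71 and 6.03 in the older, and between 11.61 and 12.80 in bone marrow. The part of these cells in the CLEC9A result was not tested.

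**Figure D4:**
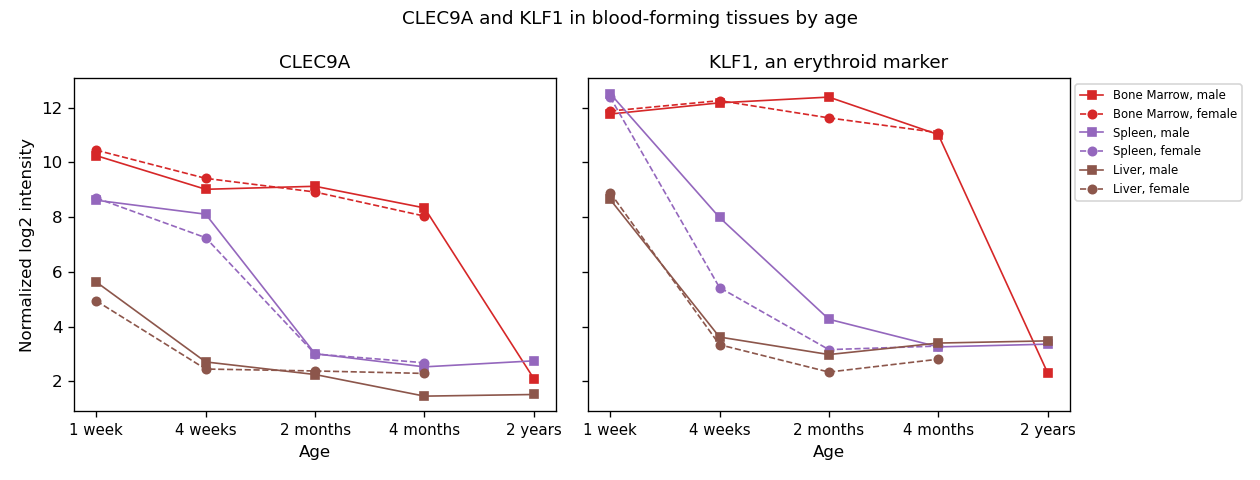
Normalized log2 intensity (vertical axis) of CLEC9A (left) and of the erythroid marker KLF1 (right) by age (horizontal axis) in bone marrow, spleen and liver, with 1 point for each male (squares, solid lines) and female (circles, dashed lines). CLEC9A is between 7.25 and 8.70 in spleen up to 4 weeks and at most 3.01 from 2 months on, whereas in bone marrow it is at least 8.04 up to 4 months and 2.10 at 2 years. Levels of the 2 genes come from different probes and are read along the age axis only.

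Among the 6 genes that rose with age in spleen were MX2, IRF4, GBP5, TLR10 and TLR8. MX2 was 6.56, 6.77, 7.33 and 6.65 in the younger samples (1-week male and female, 4-week male and female) and 8.32, 9.51, 8.23 and 9.37 in the older (2-month male and female, 4-month male and female), a rise of 2.03 ± 0.33 (adjusted p = 0.019). GBP5, a guanylate-binding protein induced by interferon gamma, was 6.10, 6.41, 7.55 and 7.00 and then 8.44, 8.57, 8.11 and 8.41 (1.62 ± 0.29, adjusted p = 0.0275). None of the 6 genes overlapped between the age groups. A call on 4 against 4 samples makes this likely, so it is no further support. IRF4 rose by 1.67 ± 0.35 (adjusted p = 0.0428) and TLR8 by 0.82 ± 0.15 (adjusted p = 0.0265), while TLR10 was not well above background in any sample.

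**Figure D5:**
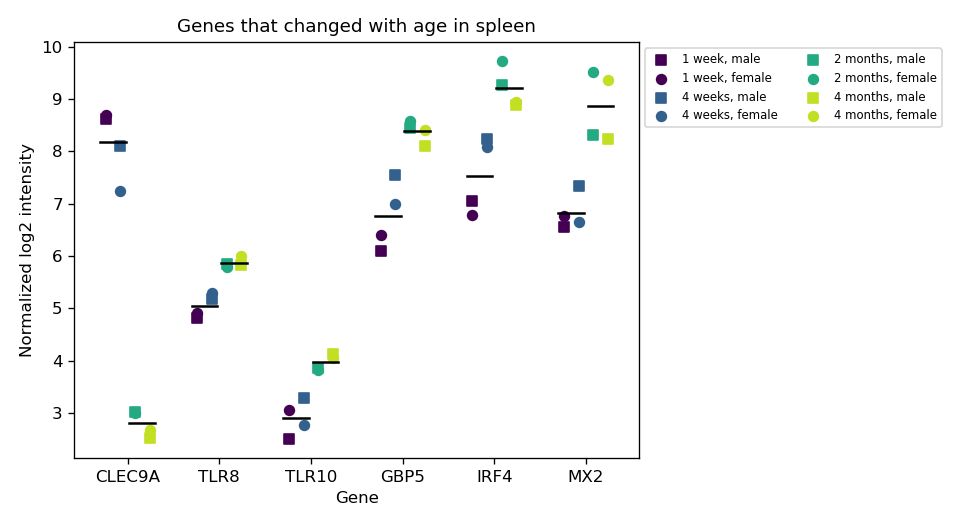
Normalized log2 intensity (vertical axis) of genes that changed with age in spleen (horizontal axis) in each of the 8 samples, colored by age, with squares for males and circles for females; black bars are the means of the 4 younger and the 4 older samples. CLEC9A is at least 7.25 in the younger and at most 3.01 in the older samples, and MX2 at most 7.33 in the younger and at least 8.23 in the older. The age groups of no gene drawn overlap, but the genes were drawn because they were called.

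With 4 samples a group, the count in spleen depended on single libraries. It was 9 without the 4-week male or the 4-week female, 4 without the 1-week female, 3 without the 2-month male or the 4-month male, 2 without the 1-week male or the 2-month female, and 1 without the 4-month female. MX2 lost its call without the 1-week male, the 2-month female or the 4-month female. GBP5, IRF4 and TLR8 kept theirs in 2 of the 8 fits, those without the 4-week male or the 4-week female, and TLR10 in 3, those 2 and the one without the 1-week female. Blood cell markers moved with the same age groups in spleen. The mean of the 6 B cell markers was between 7.59 and 8.38 in the younger samples and between 8.85 and 9.15 in the older, that of the 4 T cell markers between 6.72 and 7.90 and between 8.39 and 8.58, that of the 3 NK cell markers between 5.13 and 7.09 and between 7.19 and 7.52, and that of the 3 macrophage markers between 9.15 and 10.61 and between 10.34 and 10.68. Their part in the rise of the 6 genes was not tested.

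In bone marrow 2 genes rose, against 0.733% of all genes. GBP5 was between 5.17 and 5.81 in the younger samples and between 6.55 and 6.87 in the older (1.16 ± 0.18, adjusted p = 0.0239). CLEC4G was not well above background in any younger sample (2.53 to 3.01) and was in all 4 older ones (3.78 to 4.44), a rise of at least 2.29-fold (adjusted p = 0.0198). In cerebellum 4 genes changed, against 2.29%. OAS1 and IFITM1 were well above background in 3 of 4 older and in no younger samples, and rose at least 1.82-fold (adjusted p = 0.0149) and at least 2.13-fold (adjusted p = 0.0422). IFITM3-like rose by 1.41 ± 0.31 (adjusted p = 0.0465) and CLEC3B fell by 0.94 (SE 0.17, adjusted p = 0.0292). In kidney 1 gene changed, against 8.46%: NLRP6, an NLR protein of epithelia, which was 3.64 ± 0.21 in the younger and 4.29 ± 0.28 in the older samples (SD, n = 4 each; limma, adjusted p = 0.0467). It was well above background in 3 older and no younger samples, a rise of at least 1.56-fold, and its probes correlated at 0.38. Leaving out single samples gave 0 to 2 genes in bone marrow (0 without the 1-week male, 1-week female, 4-week male, 2-month female or 4-month female, 1 without the 4-month male), 0 to 6 in cerebellum (0 without the 4-month male or female, 1 without the 1-week male, 1-week female or 4-week male, 2 without the 2-month female, 6 without the 4-week female) and 0 to 7 in kidney (3 without the 4-week male, 7 without the 4-month female and 0 without any of the other 6). In hypothalamus, cortex and liver 0 genes changed, against 0%, 1.77% and 1.81% of all genes (limma, 11, 14 and 11 of the 65 at an unadjusted p under 0.05). The median log2 change over the 65 genes was 0.19 in spleen, 0.18 in bone marrow and 0.18 in kidney, beside 0.03, 0.01 and 0.02 over all genes.

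The sexes were compared with 28 male-female pairs as blocks, matched for tissue and age. None of the 65 genes differed, against 0.253% of all genes (limma, 1 of 65 at an unadjusted p under 0.05). That gene was IFIT1B, with a log2 difference of -0.27 ± 0.11, male minus female (adjusted p = 0.477).

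In testis, 1 of the 65 genes differed at least 4-fold between 4 weeks and 2 months, against 8.59% of all genes. IFITM5, known as a gene of bone-forming cells, had testis values of 6.44, 6.50, 8.78, 8.90 and 8.32 from the youngest to the oldest male, and no sample of the other tissues except bone marrow exceeded 8.04. IRF7 was 1.71 log2 units higher at 2 months than at 4 weeks, whereas STAT5B, STAT2, MX1 and IRF9 were lower by 1.73, 1.43, 1.27 and 1.24 (differences of -1.73, -1.43, -1.27 and -1.24). The median over the 65 genes was -0.41 and that over all genes -0.21. With 1 testis at each age no test was made.

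The 2-year samples were hybridized on 2 slides of their own, so age and slide cannot be told apart, and they are given as values. The bone marrow of that animal stood apart: its 6 erythroid markers averaged 3.71, against 7.73 to 8.91 at the younger ages, and its 3 measured neutrophil markers (of 6 listed) 7.10, against 11.61 to 12.80. In it 5 of the 65 genes lay at least 1 log2 unit outside the range of the 8 younger samples, against 0 in each of the other tissues. The share of all genes that lay so far outside in this sample was not counted. The 5 therefore cannot be called particular to the genes described here. CLEC9A was 2.10, 5.94 log2 units below the lowest younger value, IFIT1 was 8.43 (2.24 below) and IFIT1B was 6.80 (1.89 below). CLEC1A was 8.67 (1.23 above) and IRF2BPL was 10.79 (1.73 above). The liver CLEC4G value at 2 years, 12.03, lay within the younger range.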

How the data were processed

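The authors deposited the scanner output of 80 one-color arrays, made with Agilent Feature Extraction 11.5.1.1 per the labels, with the raw median intensity and a processed intensity of each spot, neither normalized between arrays. The authors' value table, log2 values per probe, served as an alternative only. Median intensities were background-corrected (normexp, offset 0), flagged spots dropped (10 to 590 per array), quantile-normalized, log2-transformed and averaged per probe and gene in R 4.3.3 with limma 3.58.1. The median intensity of gene spots was 27 to 89 per array, and technical repeats had a median SD of 0.115 log2 units. The number of arrays limits the precision.

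Genes were named by the symbol in the files, cut at the trailing number, or by the transcript identifier. Tissue contrasts, age within tissue, age-by-sex combinations (tissue as block) and sexes (28 pairs as block) were fitted with limma over all genes, with Benjamini-Hochberg adjustment over 23722 genes. Each step was tested on simulated data with 200 changed genes. Where a gene was well above background on no array of one group, the fold is a lower bound, against the higher of its own signal and the dimmest probe well above background. The labels do not say which samples share an animal, so p-values measure only the spread between these samples. Genes were named in each comparison where they were among the called members with the largest differences, up to 12 in each direction, or on a list of well-known members of each role. The members and lists were chosen with earlier results of these data known. Figures were drawn with matplotlib 3.10.9. Of the 65 genes, 2 are included in the counts but not reported individually here.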

Additional observations from a re-analysis of the deposited data

Results flagged for a closer look

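IFI30 in bone marrow had 1 sample apart from the other 7, the 1-week male at 10.36, against 10.76 to 11.06, a gap past Dixon's limit. It was the only such group among the 85 tested (1.18%), where chance gives about 1 in 20.

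The change of CLEC9A with age differed between spleen and bone marrow by -4.19 log2 units in an interaction test (limma, adjusted p = 0.00105), with a fall in the older samples of spleen.

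No comparison used the array made from renal pelvis. IFIT3 was 2.02 log2 units higher there (5.58) than in the kidney of the same age (3.55, SD 0.14 over 8 technical repeats), the only one of the 65 genes past 4-fold, a distance reached in either direction by 2.33% of all genes. MX1 (10.21 against 8.22) and IFIT1 (8.36 against 6.53) came next. With 1 array there is no replicate check.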

How the results depend on the processing

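No direction reversed among the tissue and age calls that were followed gene by gene. Each called gene was counted once for every comparison and setting. Of these pairs of call and setting, 820 kept their direction and side of the threshold under other settings of the processing and 150 lost the call. Under alternatives chosen after seeing the data (the authors' value table and no Xhyb probes), 202 kept it and 10 lost it. A gene absent under a setting, such as one with only Xhyb probes, was not counted there. The calls between age-by-sex combinations and the fits with samples or tissues left out are not part of these numbers. The counts below are of the 65 genes, and the share of all genes under these settings was not counted. The cause of a change was not tested unless it lies in the threshold itself.

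At 4-fold, 10 genes were higher in spleen, 6 in bone marrow, 3 in liver and 2 in kidney, 11 were lower in the brain regions, 1 in kidney and 0 in bone marrow, and 2 differed between spleen and bone marrow. With an offset of 50, 14 were higher in spleen, 8 in bone marrow, 18 were lower in the brain regions, 3 in kidney, 7 differed between spleen and bone marrow, 2 changed with age in cerebellum, 1 in cortex and 0 in testis. With a 2-fold threshold for age, 2 changed in cerebellum and 0 in kidney, and 16 in testis. With a filter on dim genes, 2 changed in cortex and 2 in kidney, with median scaling 0 in kidney, and with the processed signal 3 in kidney and 1 in bone marrow. With sex as a replicate block, which pairs samples by sex only, 3 changed in spleen, 2 in cerebellum and 0 in kidney. In the authors' value table, 2 changed in testis, 1 in bone marrow, 1 in cerebellum, 1 in cortex and 2 in kidney, 1 was higher in the brain regions, 2 were lower in bone marrow and 1 in liver. Without Xhyb probes, 13 differed between age-by-sex combinations, and 4 changed with age in spleen, 2 in cerebellum, 1 in cortex and 1 in bone marrow.

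Leaving out 1 sample, age and sex combination or tissue at a time gave 1 to 9 genes changed with age in spleen, 0 to 2 in bone marrow, 0 to 6 in cerebellum, 0 to 7 in kidney and 0 to 1 in liver. It gave 15 to 22 differing between combinations, 13 to 18 between spleen and bone marrow, 27 to 30 higher in spleen, 15 to 17 in bone marrow, 8 to 10 in liver and 5 to 6 in kidney, and 27 to 29 lower in the brain regions, 7 in kidney, 1 to 2 in bone marrow and 0 to 1 in liver. For genes near background, such as TLR10, GBP6 and CLEC2B, both a call and a missing call are uncertain.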
